A study of Vigna unguiculata subsp. sesquipedalis with 24 samples.

Results

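The 200 core drought-repressed unigenes are the transcripts of asparagus bean whose array signal was lowest under drought, relative to watered plants, in leaves and roots of both lines at once. They were chosen by their drought difference, the mean log2 intensity of 3 drought arrays minus that of 3 well-watered arrays, taken in B128 leaves, B47 leaves, B128 roots and B47 roots. Unigenes with a group mean of 8 or more on the log2 scale in at least 1 group were ranked by the largest of their 4 differences, 9 codes were passed over, and the lowest 200 were kept, out of 29471 unigenes in all and 25680 at that level. A unigene here is a sequence put together from cowpea cDNAs, and several short probes of a custom 1-colour array measure it. B128 and B47 are landrace lines of asparagus bean, the long-podded vegetable form of cowpea. The labels call B128 isohydric-like and B47 anisohydric-like. These terms say how closely a plant holds its leaf water status as soil dries, which the arrays do not measure. In the paper, however, drought-stressed leaves of B47 had a significantly higher relative water content than those of B128 at sampling, with similar controls. It also describes B128 as behaving less conservatively, so the labels and the paper do not match on this. Irrigation was stopped or kept up from a seedling age of 16 days. Leaflets from the sides of the first trifoliate leaf, and roots, were taken on day 15, with the 2 plants of a pot mixed into 1 sample. The 8 groups (drought and well-watered leaves and roots of B128 and of B47) have 3 arrays each, 24 in all. For the 6 drought root arrays the labels disagree on the organ, since their source says root and their description says leaf, and they were taken as roots.

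When soil dries, shoots slow their expansion early, often before photosynthesis declines. Growing cells depend on enzymes that loosen pectin and xyloglucan, and cells that mature into xylem vessels and fibres build a secondary wall from cellulose, xylan and lignin. Cellulose of the secondary wall is made by a complex in which, in Arabidopsis, the CESA4, CESA7 and CESA8 subunits all take part, and laccases polymerise the lignin. Abscisic acid (ABA) is the main hormone of water deficit. It is bound by soluble PYR/PYL receptors, which then inhibit protein phosphatases 2C and release the response.

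The labels of organ and treatment were set against marker unigenes listed from the study's descriptions. Across 26 leaf markers (chlorophyll-binding proteins, photosystem subunits, Rubisco activase and the like) the array mean lay between 9.85 and 10.28 in drought leaves and 11.07 and 11.97 in well-watered leaves, above all root arrays, which lay between 6.83 and 7.27 under drought and 6.75 and 8.06 with water. Of 3 root markers, the high-affinity nitrate transporter 3.1 and Fe(2+) transport protein 1 were higher in well-watered roots than in well-watered leaves, and the phosphate transporter PHT4;4 was lower. PHT4;4 was listed only because its description names a phosphate transporter. It was lower in roots than in leaves under drought too, so it was no root marker on these arrays. The nitrate transporter had means of 12.5 in B128 and 12.07 in B47 drought roots, against 11.71 and 12.15 in drought leaves. In drought roots the iron transporter had a mean of only 4.41 in B128 and 4.06 in B47, against 13.11 and 13.45 in well-watered roots of those lines, and of 8.35 and 7.81 in their drought leaves. The mean of the 3 root markers, PHT4;4 included, was 10.36 to 10.77 in drought leaves and 8.70 to 9.14 in drought roots. These markers thus did not set drought roots apart as roots, whereas the leaf markers set them apart from leaves. The part of these marker shifts in the results on the 200 members was not tested. The 18 drought markers (late embryogenesis abundant proteins, dehydrins, phosphatases 2C) were higher in every drought array (11.68 to 12.36) than in any well-watered array (9.98 to 10.61). The descriptions come mainly from the study's lists of genes that changed with drought on these same arrays. This drought check was therefore largely fixed in advance and says little about the treatment labels. Array medians of the whole series lay between 1506 and 1581 intensity units. Array 1 of well-watered B128 leaves stood apart for the members: 25 of the 200 were more than 2 log2 units below the mean of the other 2 arrays of that group, against 1.82% of all unigenes, and in no other array were more than 8 members so far below. Without it the median B128 leaf difference of the 200 was -3.28 and all 200 were still lower under drought.

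The members were 8.48-fold lower under drought in B128 leaves in the median (log2 -3.08), 7.00-fold lower in B47 leaves (-2.81), 9.68-fold lower in B128 roots (-3.27) and 11.1-fold lower in B47 roots (-3.47). The medians of all 29471 unigenes in the same comparisons were 0.05, 0.08, 0.11 and 0.11. These values fix the membership, so they are a description and were given no test. RNA came from whole leaflets and roots, so fewer cells of a type and less transcript per cell cannot be told apart. In all, 5320 unigenes (18.1%) were lower under drought in all 4 comparisons, 827 (2.81%) by at least 2-fold in each. The rule ended between UP12_2094 and UP12_19825, the last ranks inside, with -1.907 and -1.906 as the largest of their differences, and UP12_2752 and UP12_14525, the next outside, with -1.899 and -1.897. B47 leaves were the comparison with the smallest fall for 90 members and thus set most ranks, followed by 42 for B128 roots, 41 for B128 leaves and 27 for B47 roots.

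**Figure D1:**
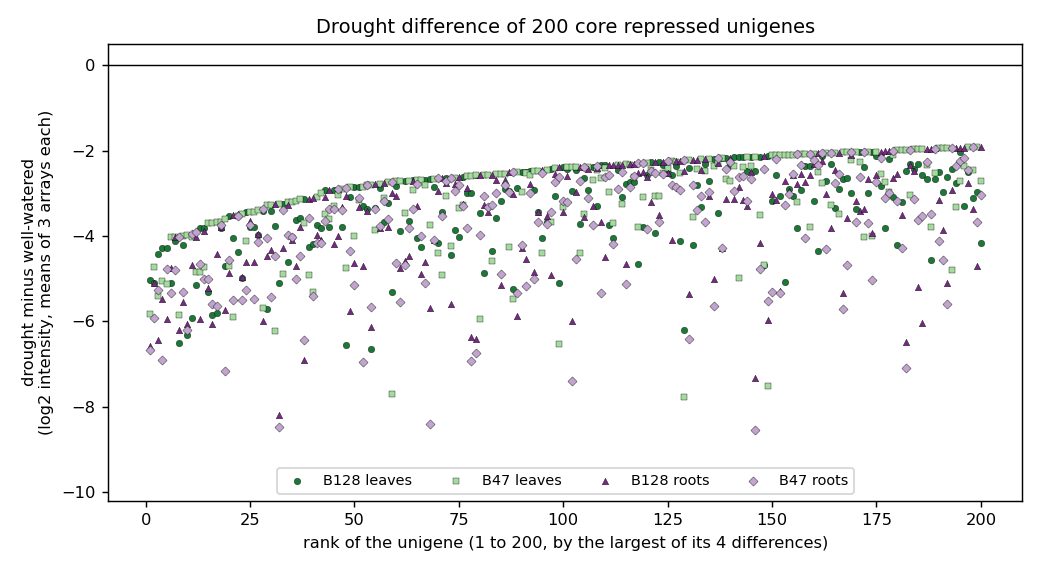
Drought minus well-watered difference (log2 intensity, vertical axis) of the 200 unigenes by rank (horizontal axis), with 1 point for each of the 4 comparisons. The upper edge is the ranking value itself and ends near -1.91, while single comparisons reach -8.55 in B47 roots.

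Unigenes were called where limma gave an FDR no higher than 0.01 and a change of 2-fold or more. By this, 197 members were called lower in B128 leaves, where 8.35% of all unigenes were called lower. The counts were 195 in B47 leaves (8.18% of all), 192 in B128 roots (11.2%) and 192 in B47 roots (11.6%). In all 4 comparisons 183 members were called. The share of all unigenes called in all 4 was not counted and is at most 2.81%, the share at least 2-fold lower in each. All 3 drought arrays lay below all 3 well-watered arrays for 197 members in B128 leaves (21.4% of all unigenes), all but 1 in B47 leaves (25.2%), all but 2 in B128 roots (21.9%) and all 200 in B47 roots (24.6%). The rule used these contrasts, so nothing is read from the counts. The drought arrays of the members were close to the bottom of the range: 67.0% were in the lowest 25% of unigenes in drought B128 leaves, 63.0% in drought B47 leaves, 57.0% in drought B128 roots and 64.0% in drought B47 roots. With water, 23, 21, 13 and 17 of the 200 were. In well-watered leaves 101 of 200 members in B128 and 98 in B47 were above the median of all unigenes, against 138 in well-watered roots of each line. No background value was used, so how far such low drought values lie above background is not known.

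Of the 200 codes, 138 carried a description in the study's gene tables and 120 an informative one. Those tables hold mainly the study's own differentially expressed genes, so counts per gene list follow that choice and are no independent evidence of a direction. The 120 descriptions were 102 distinct ones. The 32 members that share a description with another member often moved almost as one: both TEM1 unigenes had a Pearson's r of 0.998 over the 24 arrays, the pair of xyloglucan endotransglucosylase/hydrolase 9 unigenes 0.999, and the 4 SAUR-like unigenes between 0.333 and 0.905. Such pairs may read 1 gene. Sequences and genome positions of the unigenes were not used here.

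First by rank was UP12_10552, described as FAF3, of a family that in Arabidopsis limits shoot meristem size. Its log2 intensity was 4.23, 4.71 and 4.31 in drought B128 leaves, against 9.36, 9.40 and 9.56 in well-watered B128 leaves. In B47 leaves it was 5.07, 4.97 and 4.84 under drought, against 11.21, 10.51 and 10.63 with water. In roots the drought arrays read 4.70, 5.25 and 5.31 in B128 and 5.44, 5.75 and 5.79 in B47, against 11.63, 11.40 and 11.92 and 12.60, 12.19 and 12.17 in well-watered roots of those lines. The groups were far apart and even the highest drought array stayed below the lowest watered array by more than any spread within a group. The log2 differences were -5.02, -5.82, -6.57 and -6.67 in B128 leaves, B47 leaves, B128 roots and B47 roots (SE 0.20 each, n = 3 arrays per group), or 32.6-, 56.7-, 94.7- and 101-fold lower.

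Ranks 3 and 5 were both TEM1, which in Arabidopsis represses flowering through FT and gibberellin synthesis. UP12_13845 read 7.83, 7.85 and 7.61 in drought B128 leaves and 11.93, 12.14 and 12.44 in well-watered ones, and 8.09, 7.49 and 8.74 in drought B47 leaves, against 13.71, 13.05 and 13.75 in well-watered ones. In roots it read 6.45, 5.86 and 6.25 under drought in B128, against 13.00, 12.42 and 12.44 with water, and 6.47, 6.43 and 6.33 in B47, against 11.75, 11.64 and 11.66. The differences were -4.41, -5.40, -6.44 and -5.27 (SE 0.25). A myb-like transcription factor, UP12_24188, ranked 6 with -5.09, -4.02, -4.74 and -5.34 (SE 0.51), and the unannotated UP12_1036 and UP12_21528 ranked 4 and 7. Of 116 unigenes described as transcription factors, 10 were members, while 42, 55, 53 and 53 were called lower and 41, 32, 29 and 27 higher in B128 leaves, B47 leaves, B128 roots and B47 roots. Transcription factors as a group thus went both ways, and the 10 members are its repressed end. Singled out after their values were seen, SPL4 (UP12_28743, of the family that promotes phase change) was 13.9-, 28.4-, 61.8- and 25.2-fold lower, and WOX4 (UP12_18059, which maintains the vascular cambium in Arabidopsis) 19.1-, 30.3-, 8.68- and 11.9-fold lower. Ethylene-responsive transcription factor 1B (UP12_15642) was the single ethylene or jasmonate unigene of 23, with -2.15, -4.99, -2.84 and -2.62.

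**Figure D2:**
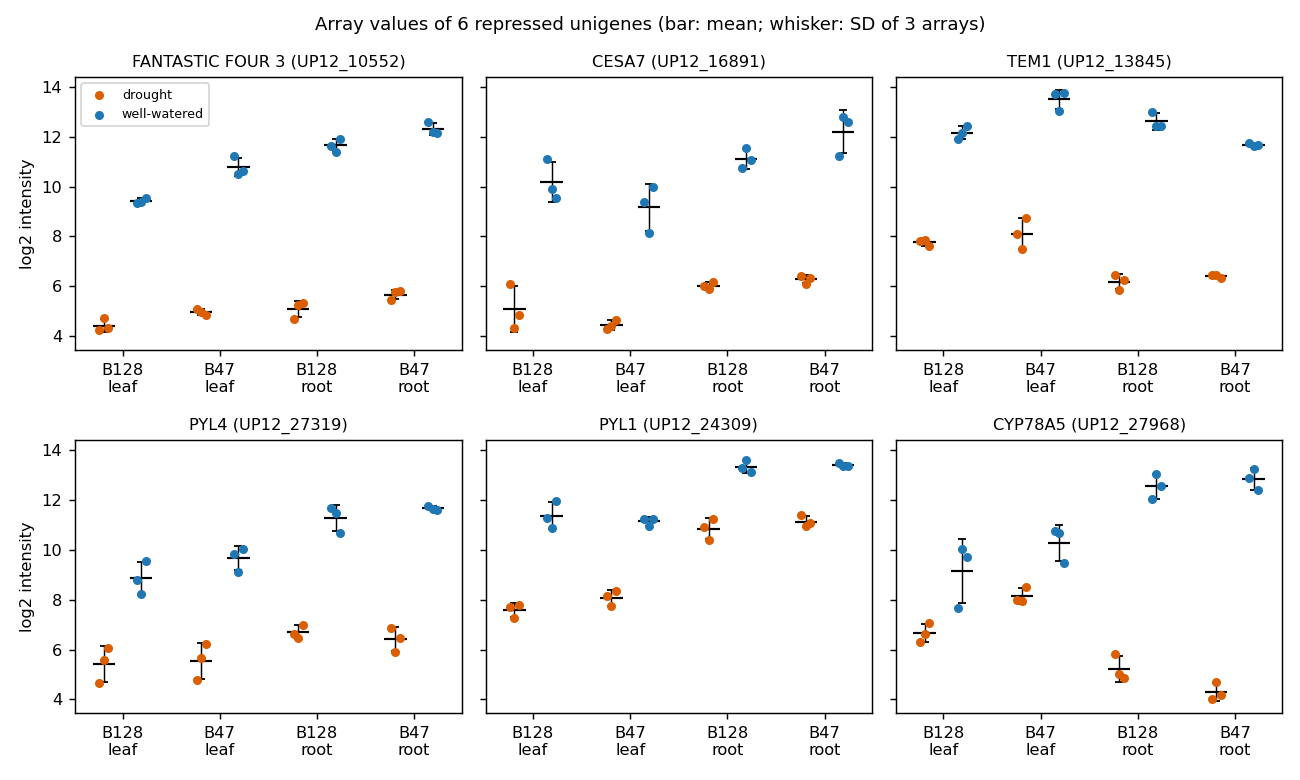
Log2 intensity (vertical axis) of 6 members on each of the 24 arrays, by line and organ, with drought in orange left of well-watered in blue, the horizontal bar the mean and the whisker the SD of 3 arrays. Drought arrays sit below watered arrays in every pair shown, and the gap of CYP78A5 is much narrower in leaves (-2.48 and -2.14) than in roots (-7.32 and -8.55).

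The cell wall lists gave the most members. Of 48 annotated unigenes of the cellulose and secondary wall list, 14 were among the 200. UP12_16891, the CESA7 subunit of secondary wall cellulose synthase, ranked 2. It read 6.09, 4.31 and 4.84 in drought B128 leaves and 11.09, 9.92 and 9.54 in well-watered ones, and 4.28, 4.39 and 4.65 in drought B47 leaves, against 9.37, 8.15 and 9.99 in well-watered ones. In roots it read 6.00, 5.88 and 6.17 under drought in B128, against 10.74, 11.55 and 11.06 with water, and 6.42, 6.09 and 6.33 in B47, against 11.22, 12.79 and 12.60. Drought and watered arrays did not overlap in any organ or line, and CESA7 was 34.4-, 26.5-, 34.3- and 60.7-fold lower (SE 0.49 on the log2 scale). CESA4 (UP12_18324) was 14.6-, 6.56-, 26.8- and 46.7-fold lower, with the smallest fall in B47 leaves, where its watered arrays were at 8.80, 7.11 and 9.11.

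Both unigenes of cellulose synthase-like B4 (UP12_23378 and UP12_14021) had differences between -3.69 and -6.05. Both unigenes of laccase-4 (UP12_19909 and UP12_9566), an enzyme of lignin polymerisation, had between -3.0 and -5.01. Chitinase-like protein 2 (UP12_5269), which takes part in cellulose assembly in Arabidopsis and has no role in attack on fungi there, had -3.98, -3.40, -3.94 and -4.14 (SE 0.38). COBRA-like 4 (UP12_1683), which in Arabidopsis organises secondary wall cellulose, had -2.50, -1.94, -3.15 and -4.11. Of the 48 annotated unigenes, 35, 28, 35 and 35 were called lower and 4, 3, 1 and 1 higher in B128 leaves, B47 leaves, B128 roots and B47 roots, so most of the annotated list was lower. The medians of the 14 members were -3.90, -3.29, -4.02 and -4.13. The unigenes of this list other than CESA7, CESA4, UP12_23378 and UP12_5269 were picked after their values were seen.

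Pectin and wall-loosening genes made up another 14 members, also of 48. UP12_14333, described as beta-1,3-glucanase 1, ranked 8 and was 90.9-, 57.5-, 73.5- and 16.1-fold lower (SE 0.60 on the log2 scale). Its watered B128 leaf arrays spread from 10.13 to 13.64 and were still above the drought arrays, 5.91, 5.97 and 5.61. Pectinesterase/pectinesterase inhibitor 39 (UP12_8116), an enzyme that removes methyl groups from pectin, read 4.29, 4.44 and 4.52 in drought B128 leaves, against 10.58, 9.60 and 10.45 with water. In roots it read 9.14, 9.29 and 8.10 under drought in B128, against 12.92, 13.30 and 13.58 with water, and was 21.4-fold lower there and 49.4-fold lower in B47 roots. The 6 xyloglucan endotransglucosylase unigenes, which cut and rejoin the tethers between cellulose fibrils, lay between -1.96 and -4.16 in all comparisons, and expansin A1 (UP12_6995, picked after its values were seen), which loosens walls at low pH, had -2.91, -2.07, -2.55 and -2.34. Of the 48 unigenes, 37, 23, 38 and 39 were called lower and 5, 6, 3 and 2 higher, with member medians of -3.19, -2.92, -2.86 and -3.38. In both wall lists more unigenes were called lower than higher in each comparison, and the fewest were called lower in B47 leaves.

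**Figure D3:**
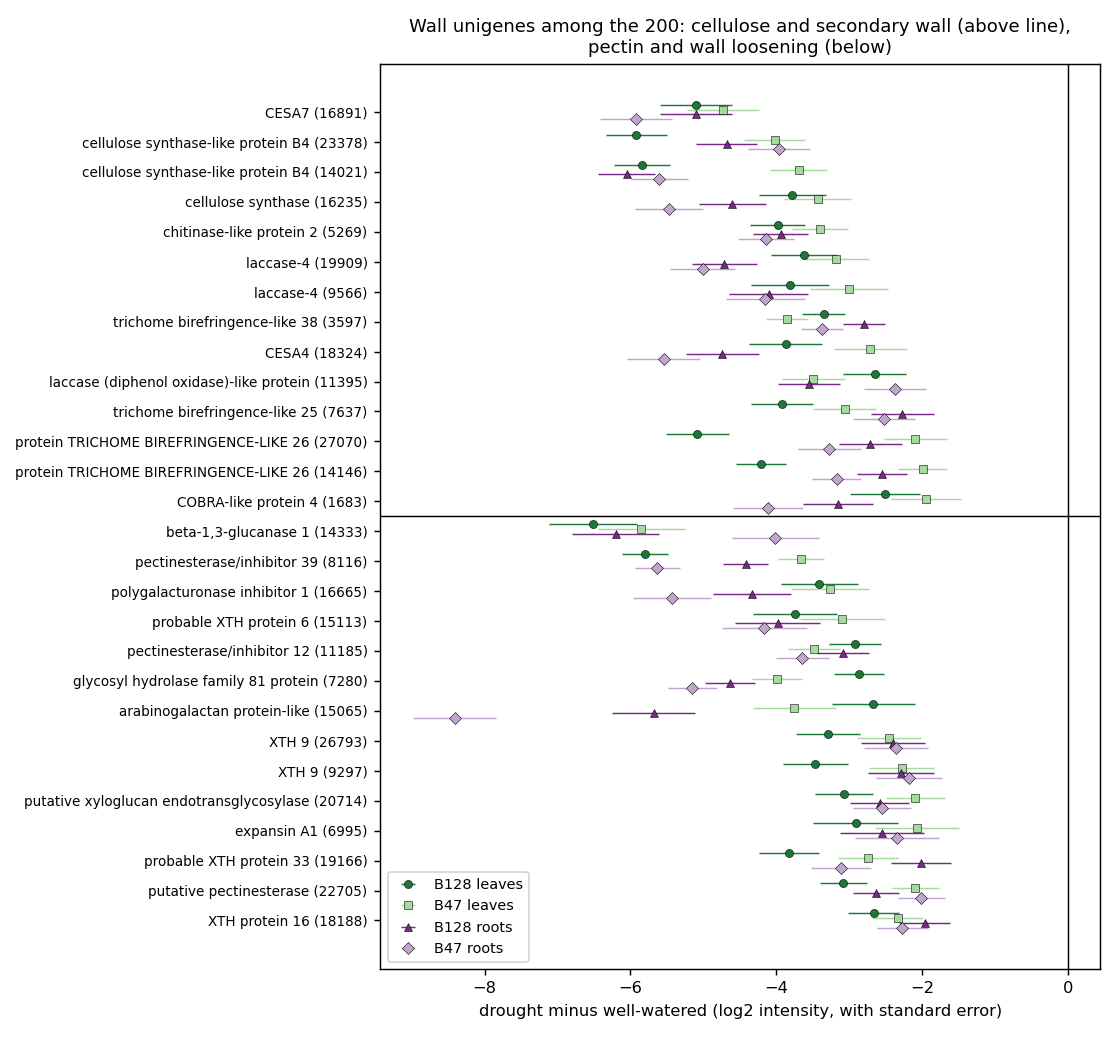
Drought minus well-watered difference (log2 intensity, horizontal axis, whiskers the standard error) of the 28 wall members, with cellulose and secondary wall unigenes above the line and pectin and wall-loosening unigenes below, and the unigene number in brackets. All points lie left of 0, and B47 roots reach -8.41 for the arabinogalactan protein-like unigene.

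Among hormone genes, 2 of 8 annotated ABA receptors were members. PYL4 (UP12_27319) read 4.65, 5.59 and 6.05 in drought B128 leaves and 8.81, 8.24 and 9.55 in well-watered ones, and 4.76, 5.66 and 6.22 in drought B47 leaves, against 9.82, 9.12 and 10.04. In roots it read 6.63, 6.45 and 7.00 under drought in B128, against 11.68, 11.50 and 10.69 with water, and 6.87, 5.92 and 6.47 in B47, against 11.78, 11.64 and 11.62. PYL4 was 10.8- and 17.3-fold lower in leaves of B128 and B47, and 24.2- and 38.4-fold lower in their roots (SE 0.41 on the log2 scale). PYL1 (UP12_24309) had the opposite order, 13.8- and 8.45-fold lower in leaves of B128 and B47 and 5.61- and 4.85-fold lower in their roots (SE 0.25). It kept a high level in drought roots, 10.92, 10.40 and 11.25 in B128 and 11.39, 10.95 and 11.08 in B47, against 13.30, 13.63 and 13.11 and 13.51, 13.38 and 13.36 in watered roots of those lines. The order of organs in these falls was not tested, since the rule used the same contrasts. Of the 8 annotated receptors, 6, 6, 7 and 7 were called lower and 2, 0, 0 and 0 higher.

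The 4 members of the auxin, cytokinin, gibberellin and brassinosteroid list, of 28, were all SAUR-like proteins, small auxin-induced proteins that promote cell expansion. UP12_1225 was 7.17- and 6.36-fold lower in leaves of B128 and B47 and 16.9-fold lower in roots of each. UP12_6892 had -3.45, -5.95, -2.57 and -3.98. UP12_10988 showed the widest gap between lines in leaves, and was singled out for that. Its drought arrays in B128 leaves read 6.74, 5.06 and 6.48 and overlapped the watered ones at 6.62, 10.30 and 7.73, a difference of -2.12 (SE 1.00) that was not called. In B47 leaves they read 4.83, 3.82 and 4.08, against 11.80, 11.32 and 12.13, a difference of -7.51.

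Both members of the cell division list of 17 were beta tubulins, the subunits of microtubules. UP12_15338 (tubulin beta-4) read 9.63, 9.14 and 9.76 in drought B128 leaves, against 12.99, 12.10 and 12.57 with water, and 5.15, 6.93 and 5.49 in drought B128 roots, against 11.57, 10.80 and 11.08. It was 8.27- and 4.27-fold lower in leaves of B128 and B47 and 39.2- and 40.6-fold lower in their roots, and UP12_15339 had nearly the same differences (-2.62, -1.94, -5.11 and -5.58). The kinases UP12_22320 and UP12_2753 were 2 of 85 annotated, and had between -2.09 and -3.79.

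Transporters and metal genes included some of the highest-ranked members. Nicotianamine synthase 1 (UP12_8214), which makes the chelator that carries iron and zinc within the plant, ranked 9. It was 18.5- and 15.9-fold lower in leaves of B128 and B47 and 46.8- and 39.9-fold lower in their roots. The root arrays read 8.77, 8.86 and 7.75 under drought in B128, against 14.20, 14.34 and 13.50 with water, and 9.31, 9.96 and 8.82 in B47, against 14.72, 14.74 and 14.59, so all watered roots were far above all drought roots. The ABC transporter B5 (UP12_21398) ranked 10 with -6.32, -3.97, -6.05 and -6.19 (SE 0.46), and the peptide/nitrate transporter UP12_24765 had -4.37, -3.52, -3.49 and -3.52 (SE 0.41). Transporters were 7 of 120 annotated, and 45, 43, 52 and 49 of those were called lower and 35, 24, 34 and 35 higher, so the class as a whole went both ways. None of 16 annotated aquaporins was a member, although 12, 12, 8 and 9 of them were called lower and 1, 0, 0 and 0 higher. None of 9 annotated ribosomal proteins was a member, with 0, 1, 0 and 0 called lower and 2, 3, 4 and 5 higher.

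Lipid and cuticle genes gave 4 of 60 members, with 21, 18, 19 and 19 of the list called lower and 33, 29, 15 and 16 higher. The lipid transfer proteins UP12_1004 and UP12_1452, secreted carriers of lipids to the surface, had -4.05, -5.90, -3.50 and -5.50 and -5.32, -7.69, -3.0 and -2.74. The drought leaf arrays of UP12_1452 were scattered, at 4.13, 6.78 and 9.02 in B128 and 8.03, 4.32 and 4.03 in B47. The glycosyltransferase, P450 and methyltransferase list gave 7 of 112, among them the O-methyltransferase UP12_11378 (-3.78, -3.44, -3.65 and -3.74) and UDP-glycosyltransferase 85A1, UP12_9042 (-4.01, -3.19, -4.08 and -4.03). Photosynthesis gave 1 of 33, a light-harvesting chlorophyll protein of complex II (UP12_13704), 25.6- and 25.4-fold lower in leaves of B128 and B47. In roots, where it was near the bottom of the range under drought (5.70 to 6.67) and scattered with water (6.96 to 10.32), it was 4.37- and 5.40-fold lower. The TIR-class resistance protein UP12_662 had -2.44, -3.68, -4.90 and -3.44.

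The 4 falls of a member differed by 1.66 log2 units in the median, from the smallest to the largest fall, and by less than 1 for 47 members and more than 3 for 26. Peroxidase 51 (UP12_9526) was the most even, with -3.80, -3.66, -3.78 and -3.75 (SE 0.37), although its level differed greatly between organs. It read 5.41, 4.98 and 6.95 in drought B128 leaves, against 9.59, 9.66 and 9.50 with water, and 10.03, 10.21 and 9.92 in drought B128 roots, against 13.54, 13.87 and 14.10. The unannotated UP12_743 came next (-2.53, -2.40, -2.52 and -2.25). Its watered B128 leaf arrays read 8.96, 11.24 and 11.68. The low value is array 1, which stood apart for the members, and the evenness of UP12_743 depends on it. At the other end stood CYP78A5 (UP12_27968), a P450 that in Arabidopsis sustains organ growth. In leaves it was 5.60-fold lower in B128 and 4.41-fold lower in B47, and the drought arrays of B128 (6.31, 6.63 and 7.06) were near the lowest watered one (7.68). In roots its drought arrays were at 5.83, 5.02 and 4.86 in B128, against 12.03, 13.06 and 12.57 with water, and at 4.02, 4.70 and 4.16 in B47, against 12.88, 13.25 and 12.39, which is 159- and 374-fold lower. The arabinogalactan protein-like UP12_15065, of a family of wall-bound proteoglycans, had -2.67 and -3.75 in leaves of B128 and B47, and -5.68 and -8.41 in their roots (SE 0.57). Another lipid transfer unigene, UP12_2304, singled out for the largest fall in B47 leaves, went the other way, with -6.20 and -7.77 in leaves of B128 and B47 and -2.47 and -2.22 in their roots (SE 1.09). Its drought leaf arrays were scattered, at 3.76, 6.54 and 9.16 in B128 and 8.67, 4.05 and 5.17 in B47. The array values of UP12_2304 ran close to those of UP12_1452, so both may read 1 gene.

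Between lines, the fall was larger in B128 than in B47 for 126 of 200 members in leaves (median difference of falls, B128 minus B47, -0.33, against -0.05 for all unigenes) and for 78 in roots (median 0.18, against 0.01). In leaves 142 members and in roots 152 differed between lines by less than 1. The paper reports a lower relative water content in drought-stressed leaves of B128 than of B47, so the lines were not equally dry at sampling. The part of this in the line differences was not tested. Between organs, the fall was larger in leaves than in roots for 92 members in B128 (median, leaf minus root, 0.08) and 69 in B47 (0.48), and 37 and 44 members differed by more than 2. When the arrays were scaled to equal yeast control entries, which moved the median drought difference of all unigenes by 0.04, 0.32, -0.40 and -0.31 in B128 leaves, B47 leaves, B128 roots and B47 roots, the 69 became 36. All 200 members were lower in all 4 comparisons under each of the 3 scalings tried.

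**Figure D4:**
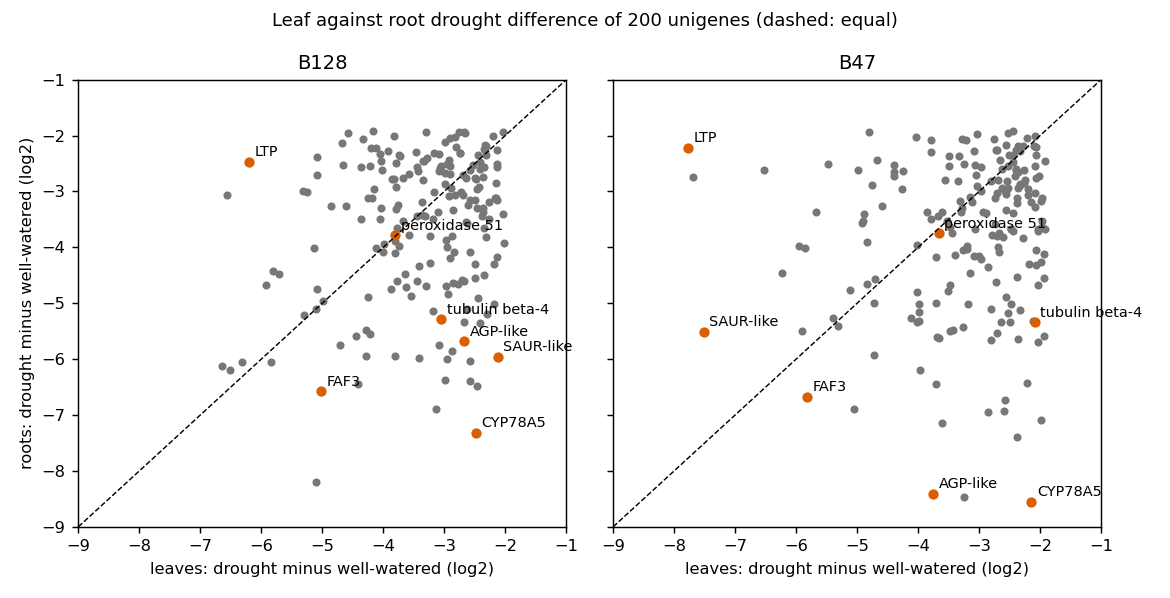
Drought difference in roots (vertical axis, log2) against that in leaves (horizontal axis, log2) of the 200 members in B128 (left) and B47 (right), with the dashed line at equal falls and 7 members named. CYP78A5 lies far below the line in both lines (-7.32 and -8.55 in roots), the lipid transfer unigene far above it (-6.20 and -7.77 in leaves), and peroxidase 51 on it.

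The level of the members was averaged over drought and watered arrays and tested between organs and between lines. The ranking did not use these differences, but the rule used the level itself, since a mean of 8 or more was needed in at least 1 group. In B128, 45 members (22.5%) were higher in leaves and 98 (49.0%) in roots by the same call, against 18.0% and 17.7% of all unigenes. In B47, 52 members (26.0%) were higher in leaves and 95 (47.5%) in roots, against 17.4% and 17.3% of all unigenes. In both lines, 39 members were called higher in leaves (15.2% of all unigenes) and 80 higher in roots (14.6% of all), and 0 were called in opposite directions (0.0441% of all). Of the 200, 179 reached the mean of 8 in both organs, 11 in leaves alone and 10 in roots alone. A unigene that reached it in 1 organ alone was kept through the organ where it is high. Among the 179, a count added after seeing the data, 34 (19.0%) were higher in leaves and 89 (49.7%) in roots in B128, against 16.1% and 14.8% of the 22264 unigenes that reached it in both organs, and in B47 the numbers were 42 (23.5%) and 86 (48.0%), against 15.9% and 14.1%. The median leaf minus root difference of the members was -1.0 in B128 and -0.98 in B47, against -0.05 and -0.07 for all unigenes. Under the yeast scaling the medians of all unigenes moved to 0.35 in B128 and 0.31 in B47, and the members' medians stayed below 0, at -0.61 in each.

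Most wall-loosening members were higher in roots. Of the 14 pectin and wall-loosening members, 1 in B128 and 2 in B47 were called higher in leaves, and 10 and 12 higher in roots. Among all members, 49.0% in B128 and 47.5% in B47 were called higher in roots, against 17.7% and 17.3% of all unigenes. The annotated unigenes of this list outside the members were not counted. Whether a higher level in roots is a trait of the list was not tested. UP12_11185 among the root-high wall-loosening members reached the mean of 8 in roots alone, so it was kept through the organ where it is high. UP12_26793 and UP12_9297, which may read 1 gene, were counted separately, and the array values of UP12_20714 ran close to theirs. Xyloglucan endotransglucosylase/hydrolase 9 (UP12_26793) read 6.18, 7.28 and 7.59 in drought B128 leaves, against 10.71, 10.63 and 9.57 with water, and 12.19, 11.65 and 11.62 in drought B128 roots, against 14.04, 14.47 and 14.14 with water. Its leaf minus root difference was -4.36 in B128 (SE 0.31, adjusted p = 1.8e-10) and -5.72 in B47 (adjusted p = 2.8e-12), and even the lowest drought root array of B128 was above its highest watered leaf array. Its near-identical partner UP12_9297 had -4.21 and -5.50. PYL4 was also higher in roots, with -1.84 in B128 and -1.45 in B47 (SE 0.29, adjusted p = 1.2e-05 and 0.00018), and PYL1 with -2.62 and -2.66 (SE 0.18, adjusted p = 8e-11 and 6.2e-11). The leaf minus root differences of peroxidase 51 (UP12_9526) were -4.26 in B128 and -4.30 in B47, and those of nicotianamine synthase 1 (UP12_8214) -3.29 and -4.99.

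Leaf-high members included tubulin beta-4, with a leaf minus root difference of 2.53 in B128 and 3.24 in B47 (SE 0.31, adjusted p = 4.8e-07 and 1.4e-08). The light-harvesting protein had 3.60 and 2.69 (SE 0.46, adjusted p = 8.4e-07 and 3.3e-05). The largest differences belonged to members with no description, and 5 of these, singled out after their values were seen, exceeded 6.5 in both lines (7.28 to 8.06 in B128, 6.68 to 7.40 in B47). All 5 reached the mean of 8 in leaves alone, so these differences are a description. On single arrays they read 8.36 to 13.91 in drought leaves and 13.41 to 15.36 in watered leaves, against 3.29 to 5.51 in drought roots and 5.79 to 8.61 in watered roots. Their values correlated with r of 0.963 to 0.999 over the 24 arrays, so they may read 1 transcript or close copies.

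Line differences were fewer. The averages include drought leaves, which were drier in B128 than in B47 by the paper's relative water content, and the part of this was not tested. In leaves, 12 members (6.0%) were higher in B128 and 18 (9.0%) higher in B47, against 2.14% and 2.16% of all unigenes. In roots, 6 members (3.0%) were higher in B128, against 1.14% of all, and 0 were higher in B47, against 1.26% (18 members were lower in B128 roots at an unadjusted p of limma under 0.05). With only the leaf arrays in the fit, the 30 members called in leaves became 12. Left out singly, array 1 of drought B128 leaves brought the leaf count to 19 and array 1 of watered B128 leaves the root count to 12. With limma's treat, which asks whether a change exceeds 2-fold, 0 members were called in either organ, with 15 in leaves and 3 in roots at an unadjusted p under 0.05.

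In leaves, the 12 members called higher in B128 included 5 of the 14 cellulose and secondary wall members. None of those 14 was called higher in B47, although UP12_23378, UP12_14021 and UP12_3597 leaned that way. The 5 were trichome birefringence-like 25 (UP12_7637) with 1.69 (SE 0.30, adjusted p = 0.00055), CESA4 with 1.45 (SE 0.35, adjusted p = 0.0073), trichome birefringence-like 26 (UP12_14146) with 1.36 (adjusted p = 0.00055), laccase-4 (UP12_19909) with 1.32 (adjusted p = 0.0063) and chitinase-like 2 with 1.21 (adjusted p = 0.0035). The other unigenes of trichome birefringence-like 26 (UP12_27070) and laccase-4 (UP12_9566) were also higher in B128 leaves, but were not called. UP12_7637 read 6.99, 5.57 and 6.76 in drought B128 leaves, against 4.82, 5.34 and 5.39 in drought B47 leaves, and 11.23, 9.43 and 10.43 in watered B128 leaves, against 8.48, 8.29 and 7.94 in watered B47 leaves. The lines thus did not overlap in either treatment for it. Trichome birefringence-like proteins are wall polysaccharide acetyltransferases in Arabidopsis. ESKIMO 1 (UP12_17190), of the same family but outside the list and picked after its values were seen, had 1.09 (adjusted p = 0.007). The count of 5 became 2 when any 1 of 4 leaf arrays was left out: array 1 of drought B128, array 1 of watered B128, array 2 of drought B47 or array 2 of watered B47. It was 3 with the replicate number as a block, 3 under the yeast scaling and 2 with only the leaf arrays in the fit. CESA4 lost its call with the block (adjusted p = 0.012), under the yeast scaling (0.012), with array weights (0.023) and with only the leaf arrays (0.02), and chitinase-like 2 with array weights, where the difference fell short of 2-fold, and with only the leaf arrays (0.013).

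The largest line difference in leaves towards B128 was that of the arabinogalactan protein-like UP12_15065, 2.48 (SE 0.40, adjusted p = 0.00023). It read 8.52, 8.98 and 8.87 in drought B128 leaves, against 7.12, 4.87 and 5.32 in drought B47 leaves, and 12.37, 11.41 and 10.59 against 9.49, 9.04 and 10.03 with water. Next came UP12_23167, an unknown protein, with 1.85 (adjusted p = 7.4e-05). The largest towards B47 were those of a 2-oxoglutarate-dependent dioxygenase, UP12_19287, -2.49 (SE 0.50, adjusted p = 0.0017), and of an uncharacterized protein, UP12_768, -2.34 (adjusted p = 0.00088). UP12_19287 read 5.13, 5.29 and 6.15 in drought B128 leaves, against 9.11, 8.13 and 9.59 in drought B47 leaves. With water the lines were closer, 8.06, 12.01 and 11.82 in B128 and 12.03, 12.81 and 11.71 in B47. The B128 minus B47 difference of the ABC transporter B5 (UP12_21398) in leaves was -1.68 (SE 0.32, adjusted p = 0.0011). With only the leaf arrays in limma's fit, none of these 3 members higher in B47 passed (adjusted p = 0.023 for UP12_19287, 0.011 for UP12_768 and 0.013 for UP12_21398). In roots a tautomerase/MIF superfamily protein, UP12_22354, was higher in B128 by 1.51 (SE 0.28, adjusted p = 0.0013), a call lost with only the root arrays in the fit (adjusted p = 0.013).

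**Figure D5:**
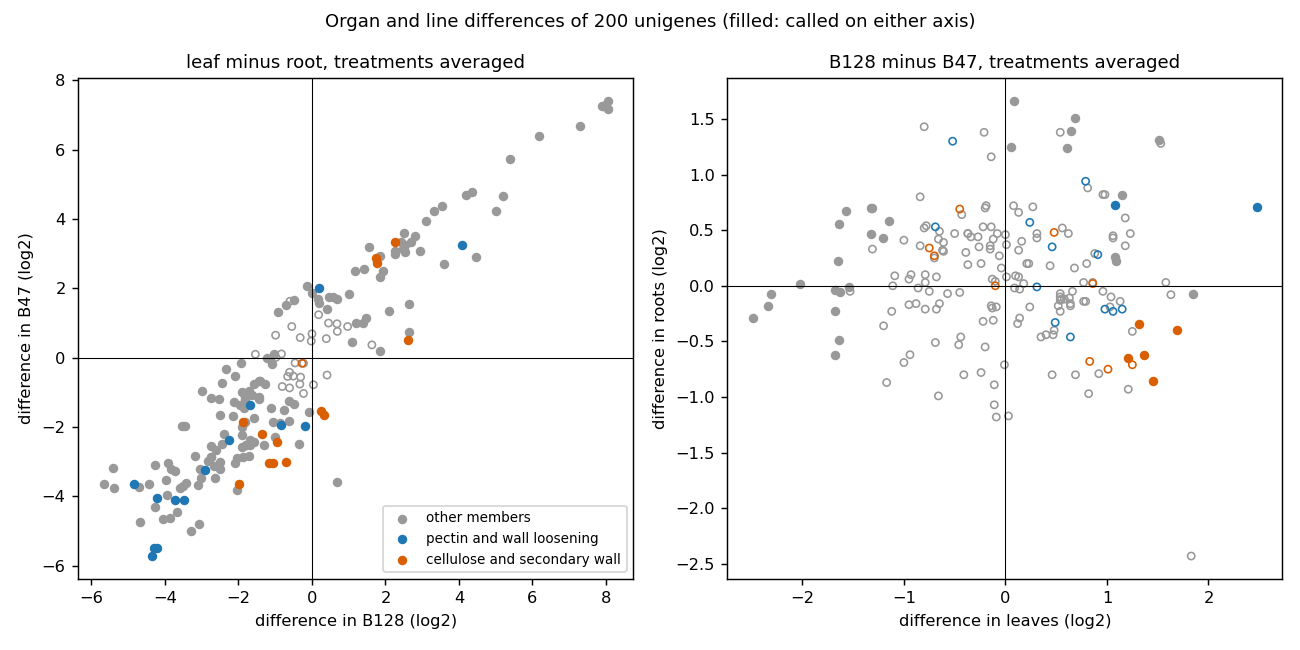
Differences in mean level of the 200 members, averaged over treatments (log2): leaf minus root in B128 against B47 (left) and B128 minus B47 in leaves against roots (right), with filled points called on at least 1 axis. Wall-loosening members (blue) lie mostly among the root-high points, and the filled cellulose and secondary wall members (orange) on the right lie at 1.21 to 1.69 in leaves and below 0 in roots.

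The line difference itself changed between organs for 13 members. It was larger in leaves for 5 (2.5%, against 0.808% of all unigenes) and larger in roots for 8 (4.0%, against 1.10%). Of the 5, 4 were cellulose and secondary wall members: CESA4 by 2.30 (SE 0.50, adjusted p = 0.0083), trichome birefringence-like 25 by 2.09, trichome birefringence-like 26 by 1.98 and chitinase-like 2 by 1.86. Not all of that list leaned this way: UP12_23378, UP12_14021 and UP12_3597 had negative values that were not called. Trichome birefringence-like 25 reached the mean of 8 in leaves alone, with root arrays at 4.46 to 8.25, so its value is a description. CESA4 averaged 8.43 in B128 leaves and 6.98 in B47 leaves, and 9.14 in B128 roots and 9.99 in B47 roots. Its call was lost with the replicate number as a block (adjusted p = 0.014), under the yeast scaling (0.013) and in 15 of the 24 fits that lacked a single array. Both TEM1 unigenes went the other way, by -1.20 and -1.41 (adjusted p = 0.0073 and 0.0042), as did the peptide/nitrate transporter by -2.01 (adjusted p = 0.006, and 0.014 under the yeast scaling). The count of 13 ranged from 5 to 18 when 1 array was left out, and the 4 wall members from 1 to 5.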

How the data were processed

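RNA of leaves and roots of B128 and B47 was hybridised to 24 custom 1-colour NimbleGen arrays, 3 per group of line, organ and treatment. The authors extracted probe intensities with NimbleScan, normalized them by quantiles and summarized them by RMA to 1 value per unigene, and deposited a normalized intensity on a linear scale. Tool versions are not given in the sources used here, and no detection calls or probe values were used. Intensities were log2-transformed without a pseudocount (lowest value 4.52). The fit (limma 3.58.1, R 4.3.3) had a mean for each of the 8 groups and used every array (16 residual and 2.88 prior degrees of freedom), without the 8 yeast control entries. P-values were adjusted by Benjamini-Hochberg within each comparison over 29471 unigenes, and calls needed an FDR no higher than 0.01 together with a change of 2-fold or more. These thresholds are those the study used, and it names no array test. Standard errors are those of this fit. The 5 tests that do not use the drought difference were line in leaves, line in roots, organ in B128, organ in B47 and line by organ, averaged over treatments.

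Descriptions came from the study's gene tables, matched by unigene code, and 17 lists of words sorted them. Named were the first 10 by rank, the first 2 of each list, the 2 largest called differences in each direction of each test (unannotated ones left out), the 2 most and the 2 least even members and both sides of the edge. The members and lists were chosen with earlier results of these data known. Replicates are separate pots, and the number of arrays limits the precision. On simulated data with 29471 unigenes, the fit recovered 94% to 96% of log2 differences of 2 in the 4 line and organ tests and 84% in line by organ. The simulated unigenes were drawn at random and, unlike the members, had no drought difference. Differences below 2 were not simulated, so these shares do not describe the smaller line differences reported here. Alternatives were other scalings, array choices, blocks, spread estimates and thresholds, and leaving out each array. Counts within the wall lists under these were added after seeing the data. One named member is not reported here.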

Additional observations from a re-analysis of the deposited data

Results flagged for a closer look

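A difference between lines that changed between organs, by limma's test of line by organ, was called for 8 of the named members. The values are B128 minus B47 in leaves, less the same in roots, averaged over treatments. In the cellulose and wall genes among these 8 it was positive: 2.30 for CESA4 (UP12_18324), 2.09 for trichome birefringence-like 25 (UP12_7637) and 1.86 for chitinase-like protein 2 (UP12_5269). It did not hold for the whole list, since UP12_23378, UP12_14021 and UP12_3597 had negative values that were not called. Trichome birefringence-like 25 reached the mean of 8 in leaves alone, so its value is a description. The unknown protein UP12_23167 had 1.92. It was negative for both TEM1 unigenes, -1.20 (UP12_13845) and -1.41 (UP12_23982), for the peptide/nitrate transporter UP12_24765, -2.01, and for UP12_18536, described only as F12K21.8, -2.24. With limma's treat, which asks for a change beyond 2-fold, none of the 8 passed. CESA4 also lost the call with the replicate number as a block and under the yeast scaling, and the peptide/nitrate transporter under the yeast scaling. Leaving out 1 of the 24 arrays ended the call of UP12_13845 in 16 cases, of CESA4 in 15, of trichome birefringence-like 25 in 11, of the peptide/nitrate transporter in 10, of chitinase-like protein 2 in 9, of UP12_23167 in 6, of UP12_23982 in 1 and of UP12_18536 in 0.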

How the results depend on the processing

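The 200 members stayed lower under drought in all 4 comparisons under the 3 scalings tried, and of 180 drought differences of named members 0 reversed and 33 moved under a scaling. A group mean of 8 or more in every group, in place of any group, kept 24 members. A filter on low values left 147. Of 79 called line and organ differences of named members, 0 reversed, 46 lost the call under an alternative (16 apart from treat) and 15 when 1 array was left out. An FDR of 0.05 called 51 members for line in leaves (30 at 0.01), 10 for line in roots (6) and 32 for line by organ (13). Limma's treat, which asks whether a change exceeds 2-fold, called 0, 0 and 0 there (15, 3 and 18 at an unadjusted p under 0.05), 93 for organ in B128 (143) and 115 for drought in B47 leaves (195). Array weights called 20 for line in roots and 50 for line by organ. Only the leaf arrays in the fit gave 12 for line in leaves. This alternative cannot be run for line by organ. With the yeast control entries set equal, line by organ had 8, and 36 members (69 as deposited) fell more in leaves than in roots of B47. The cause of these shifts was not tested.

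Leaving out 1 array gave 19 to 36 members for line in leaves, 5 to 12 for line in roots, 136 to 144 for organ in B128, 145 to 152 for organ in B47 and 5 to 18 for line by organ. Line by organ had 5 without array 1 of drought B128 leaves, drought B128 roots or drought B47 roots, 6 without array 1 of drought B47 leaves or array 3 of drought B128 roots, and 7 without array 3 of drought B128 leaves, array 1 of watered B47 leaves, array 1 of watered B128 roots, array 2 of drought B47 roots, or array 2 or 3 of watered B47 roots. The drought counts ranged over 184 to 198, 175 to 198, 183 to 194 and 183 to 194 in B128 leaves, B47 leaves, B128 roots and B47 roots. The rule kept at least 163 of its members, the fewest without replicate 2 of every group. Members with the larger fall in B128 numbered 112 to 136 in leaves and 69 to 86 in roots, and with the larger fall in leaves 81 to 98 in B128 and 60 to 77 in B47. Counts within the wall lists, added after seeing the data, were 2 to 6 for line in leaves (5) and 1 to 5 for line by organ (4) with 1 array left out, and 0 to 7 and 0 to 8 under other settings. Root-high wall-loosening members were 6 to 11 in B128 (10) and 8 to 12 in B47 (12).

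With the replicate number as a replicate block, the counts were 29 for line in leaves, 7 for line in roots, 140 and 148 for organ in B128 and B47, 12 for line by organ, and 197, 191, 195 and 195 for drought, none moved by over 1.5 times. By their labels, samples share only a number: same-numbered deviations correlated above 0.1 in 7 of 12 pairs of lines, 2 of 12 pairs of treatments and 2 of 12 pairs of organs. The paper took leaflets and roots from the same plants, so leaf and root arrays may share pots. With same-numbered leaf and root arrays treated as 1 pot in a random block, their correlation was -0.0427. The counts were then 142 for organ in B128, 147 for organ in B47 and 12 for line by organ. Without probe values, the depth of signal over background limits what can be said of members low under drought.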
